A study of Homo sapiens with 20 samples.

Results

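In 12 sets of 4 consecutively numbered guide RNAs, a single guide was depleted from HAP1 cells over 14 days of RfxCas13d activity while its 3 companions were not. The members were chosen by their HAP1 values. A set was taken when all 4 guides were present in the HAP1 and HEK293FT tables, exactly 1 guide had a HAP1 change below -1.5, the other 3 were above -0.3 and the set mean was above -1. The change is the mean log2 signal at day 14 less that at day 0, after each library was centred on its non-targeting guides. The rule yielded 12 of 4044 complete sets (0.30%), or 48 of 16176 guides in such sets. The depleted member is called the low guide here and the other 3 are its companions. Because the rule used the HAP1 values, they are given below as a description without a test. The HEK293FT libraries were not used by the rule and carry the tests.

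Cas13d is a nuclease that is directed by a guide RNA to a complementary transcript and cuts RNA rather than DNA. In a pooled fitness screen each cell carries 1 guide from a lentiviral library, and cells whose guide slows growth become rarer, so that the guide's share of the pool falls. Screens of this kind use several guides per target because guides to the same transcript can differ in how well they work.

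All 8 libraries used here came from cells engineered to express nuclear-localised RfxCas13d from a doxycycline-inducible construct, transduced at a low multiplicity of infection with the same guide library and selected with puromycin. HAP1 is a near-haploid line derived from a chronic myelogenous leukaemia, and HEK293FT derives from embryonic kidney. Each line had 2 libraries at day 0 and 2 at day 14 of induction with 1 µg/ml doxycycline, from separate infections according to the labels. Guide cassettes were amplified from genomic DNA and sequenced. The other 12 libraries of the series carried other guide libraries in A375 cells or with a high-fidelity nuclease, and were not used here.

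The values are signals normalised by the authors, with no unit beyond relative abundance, and the depth behind them is unknown. Median signal per library was 111 to 116 in HAP1 and 133 to 138 in HEK293FT. Guides are identified by their numbers, and target genes and guide sequences were not analysed here. That 4 consecutive numbers share a target is not stated in the labels. In 78.8% of complete sets, and in all 12 of these, the HAP1 change decreased at every step along the numbers. The low guide was accordingly the last number of its set in 12 of 12 sets, as the lowest HAP1 guide was in 90.9% of complete sets. The place within a set is thus tied to the HAP1 values that chose the members. Each line has a table of its own, and levels are not compared between the tables.

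Sets with an isolated low guide were uncommon among sets with any depletion in HAP1. Of the 4044 complete sets, 3707 had no guide below -1.5, 109 had 1, 89 had 2, 81 had 3 and 58 had all 4. Among the 109 sets with 1 guide below -1.5, the next guide lay at or below -0.3 in 97, and 12 met the rule. The condition on the set mean removed 0 sets. The low guides were 12 of the 762 guides below -1.5 in complete sets (1.57%). When sets were formed in the same way from consecutive non-targeting guides, 0 of 249 met the rule, and the lowest HAP1 change among 999 non-targeting guides was -0.75. Their median HAP1 day 0 signal was 434, against 90.3 for the low guides, so the control guides were measured at higher abundance.

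The low guides spanned HAP1 changes from -4.07 to -1.51, with a median of -2.08. The 36 companions ranged from -0.24 to 0.84, with a median of 0.07. The difference between the low guide and the next lowest guide of its set was between -3.86 and -1.39 on the log2 scale. At the edge of the rule, gID_06576 was at -1.51 inside it, while gID_13552, with companions above -0.3, was at -1.47 outside it. The next inside were gID_02412 at -1.55 and gID_10964 at -1.60, and the next outside were gID_16196 at -1.44 and gID_10888 at -1.43. On the companions' side, the lowest companion of gID_10500 was at -0.24 inside, and that of gID_16412 was at -0.31 outside.

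The lowest HAP1 change was that of gID_08120, in the set gID_08117 to gID_08120. Its signal was 67.6 and 127 in the day 0 libraries and 5.14 and 5.97 in the day 14 libraries, a change of -4.07 or 16.8-fold lower. Its companions lay between -0.21 and 0.36, near their starting level. The set mean of -0.96 was the closest of the 12 to the limit of -1. The size of a change to signals this low depends on how low values are treated, and with 10 added to each signal the change was -2.74.

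The next 5 low guides were lower at day 14 by between 5.24-fold and 7.93-fold in HAP1. For gID_15204 the signal was 87.0 and 117 at day 0 and 13.8 and 11.9 at day 14, a change of -2.99 with companions from -0.12 to 0.28. The guide gID_01128 had HAP1 signals of 55.4 and 86.8 at day 0 and 8.30 and 13.6 at day 14, a change of -2.71. All 3 of its companions were above 0, from 0.16 to 0.50. For gID_16148 the signals of 57.4 and 86.9 became 8.12 and 17.4, a change of -2.57. The guide gID_08172 went from 98.0 and 123 to 13.4 and 31.1, a change of -2.43. In gID_16148 and gID_08172 the day 14 libraries differed from each other by over 2-fold, yet both lay below both day 0 libraries. The guide gID_10500 went from 81.7 and 102 to 16.2 and 18.9, a change of -2.39, with day 14 libraries close to each other.

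The remaining 6 low guides had HAP1 changes between -1.77 and -1.51. The guide gID_16560 went from 92.2 and 112 to 32.3 and 27.8. The guide gID_16040 started highest of the 12, at 126 and 129, and ended at 31.1 and 50.9. For gID_15516 the signals were 73.0 and 82.2 and then 17.9 and 33.7. In all 3 the highest day 14 library was below the lowest day 0 library by a wide margin. The guide gID_10964 went from 59.2 and 85.6 to 28.2 and 19.7. For gID_02412 the signals were 64.6 and 112 and then 33.4 and 25.7, and its companions were all higher at day 14, from 0.24 to 0.84. Thus the set of gID_02412 had a mean of 0.03 and was not lower as a whole. The guide gID_06576 went from 57.3 and 59.9 to 17.5 and 24.4, the lowest starting level of the 12.

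The HAP1 day 0 libraries were not alike for these guides. In 12 of 12 low guides replicate 1 was below replicate 2 at day 0, against 24 of 36 companions, 53.9% of all targeting guides and 87.1% of guides below -1.5. The gap was widest for gID_08120, at 67.6 and 127, and the part of this in the choice of sets was not tested. Membership moved with the libraries: without day 0 replicate 1 the rule found 14 sets, of which 7 were among the 12, and without day 0 replicate 2 it found 8, all among the 12. Without day 14 replicate 1 it found 11 sets with 6 of the 12, and without day 14 replicate 2 it found 12 with 8 of the 12. The sets of gID_01128, gID_10500 and gID_16560 met the rule in each of these 4 settings, and that of gID_10964 in none of them. That of gID_08120 met it in 1 setting. Those of gID_15204, gID_16148, gID_16040, gID_02412 and gID_06576 met it in 2, and those of gID_08172 and gID_15516 in 3. With 10 added to each HAP1 signal the rule found 7 sets, of which 6 were among the 12.

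In HEK293FT cells none of the 12 low guides passed the test for a change between day 0 and day 14, at a Benjamini-Hochberg adjusted p under 0.05 from limma over 17572 guides, where 1.08% of guides were called lower. At an unadjusted p under 0.05, 4 of the 12 were lower, against 9.52% of all guides. The share was 12.0% for the lowest HAP1 guide of every complete set. It was 51.5% for that guide in the 97 other sets with 1 guide below -1.5 in HAP1. For guides of sets with all 4 below -1.5 it was 71.6%. The median HEK293FT change of the low guides was -0.26, against -0.03 over 16572 targeting guides. They ranged from -1.05 to 0.12, and 9 of 12 (75%) lay below 0, against 57.0% of targeting guides and 72.2% of their companions. Without the second day 14 library of HEK293FT, however, 3 of the 12 were called lower, namely gID_16148, gID_15204 and gID_02412, in a fit that called 3.07% of all guides lower. The median of the 12 was then -0.49, and it was -0.11 without the first day 14 library. With any 1 of the other 3 HEK293FT libraries left out, 0 were called.

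The low guide with the lowest HEK293FT value was gID_16148. Its HEK293FT signal was 100.5 and 97.9 at day 0 and 33.7 and 68.1 at day 14, so both day 14 libraries lay below both day 0 libraries, replicate 1 far more than replicate 2. The change was -1.05 ± 0.30 (SE, n = 2 libraries per day), with an adjusted p of 0.19 from limma and a 95% confidence interval from -1.74 to -0.35. It was -1.56 with day 14 replicate 1 alone and -0.54 with replicate 2 alone. The guide gID_15204 had signals of 125 and 139.6 at day 0 and 56.9 and 95.2 at day 14, again with replicate 1 lower. Its change was -0.84 ± 0.23 (SE, adjusted p = 0.17 by limma), with an interval from -1.37 to -0.31. With a single day 14 library it was -1.22 or -0.46.

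The guide gID_08120, lowest in HAP1, had HEK293FT day 14 libraries close to each other. Its signal was 124 and 119 at day 0 and 78.7 and 87.0 at day 14, which separates the days with little spread within either. The change was -0.55 ± 0.14 (SE), 1.47-fold, with an adjusted p of 0.141 from limma, beside 16.8-fold in HAP1. The fourth guide with an unadjusted p under 0.05 was gID_01128, at 92.8 and 90.4 at day 0 and 62.3 and 76.7 at day 14. Its change was -0.40 ± 0.17 (SE, adjusted p = 0.371 by limma), and the interval from -0.80 to -0.01 barely left out 0. In these 4 guides both day 14 libraries lay below both day 0 libraries, as in 26.9% of all guides tested. The 4 were picked by a p-value from the same libraries, so this separation adds no support.

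In 4 more low guides the HEK293FT change was between -0.44 and -0.08, with an unadjusted p above 0.05 from limma. The guide gID_02412 was at 125 and 127 at day 0 and 75.0 and 115 at day 14, a change of -0.44 ± 0.20 (SE), or -0.75 with day 14 replicate 1 alone and -0.13 with replicate 2 alone. The guide gID_16560 was at 127 and 142 at day 0 and 93.8 and 126 at day 14, a change of -0.30 ± 0.17 (SE). In both, the days did not overlap, with the second day 14 library close to the day 0 level. The guide gID_06576 was at 78.4 and 73.8 at day 0 and 55.4 and 76.9 at day 14, a change of -0.22 ± 0.21 (SE) with overlapping days. The guide gID_10964 measured 95.4 and 107 at day 0 and 100.1 and 91.2 at day 14, a change of -0.08 ± 0.14 (SE) with overlapping days.

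The other 4 low guides had HEK293FT changes between -0.07 and 0.12, with days that overlapped. The guide gID_10500 was at 149 and 123 at day 0 and 118 and 141 at day 14, a change of -0.07 ± 0.15 (SE) with an interval from -0.42 to 0.29. The guide gID_15516 was at 101 and 133 at day 0 and 124 and 111 at day 14, a change of 0.02 ± 0.16 (SE) with an interval from -0.35 to 0.38. For these guides a fall in HEK293FT of the size of the HAP1 threshold lies outside the interval. The guide gID_08172 was at 107 and 146 at day 0 and 124 and 133 at day 14, a change of 0.04 ± 0.17 (SE) with an interval from -0.34 to 0.42, beside -2.43 in HAP1. The highest of the 12 was gID_16040, at 154 and 178 at day 0 and 194 and 167 at day 14, a change of 0.12 ± 0.14 (SE) with an interval from -0.19 to 0.44. Over the 12 low guides, the interval lay wholly above -1.5 in 11 and wholly above -1 in 10. The HAP1 changes were selected as extremes, which favours a distance from HEK293FT, and that distance was not tested.

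The day 14 libraries of HEK293FT differed in how far the values of these guides lay below day 0. The median of the 12 low guides against the day 0 mean was -0.49 in day 14 replicate 1 and -0.11 in replicate 2, while over all targeting guides it was -0.04 and -0.03. In replicate 1, 6 low guides were below -0.5, and in replicate 2 there was 1. Replicate 1 was below replicate 2 in 9 of the 12 low guides, 19 of the 36 companions and 51.5% of targeting guides. The low guides of the 97 other sets with 1 guide below -1.5 in HAP1 showed the same order, with medians of -0.49 and -0.27. So did guides of sets that were fully depleted in HAP1, with medians of -1.02 and -0.65.

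Whether the low guide was lower than its own companions in HEK293FT was tested set by set, as its log2 signal less the companions' mean. None of the 12 sets passed at an adjusted p under 0.05 from limma, where 1.11% of 4044 complete sets were called lower with the lowest HAP1 guide treated in the same way. At an unadjusted p under 0.05, 2 of the 12 were lower, against 8.04% of all complete sets. The median difference was -0.13 over the 12 sets and -0.02 over all complete sets. It was negative in 8 of 12, against 53.4% of all complete sets. Without day 14 replicate 2 of HEK293FT, 2 sets were called, those of gID_16148 and gID_15204, in a fit that called 3.46% of complete sets lower. With any 1 of the other 3 HEK293FT libraries left out, 0 of the 12 were called. With the replicate number as a block, 1 of the 12 was called, the set of gID_16148, in a fit that called 2.32% of complete sets lower.

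The set of gID_16148 had the largest difference, at -1.04 ± 0.30 (SE, adjusted p = 0.172 by limma). With the replicate block the same difference had an adjusted p of 0.0104 from limma, and over the other settings and libraries left out the adjusted p ran from 1.05e-05 to 0.558. Its companions averaged -0.01 in HEK293FT but were spread, with gID_16147 at -0.45 and gID_16145 at 0.26. So in that set the guide next to the low one was also below 0, but did not pass the test (adjusted p = 0.248 from limma). The set of gID_15204 was at -0.61 ± 0.23 (SE, adjusted p = 0.322 by limma). The set of gID_02412 was at -0.47 ± 0.22 and that of gID_08120 at -0.36 ± 0.17 (SE), with adjusted p of 0.426 and 0.429 from limma. For gID_01128 the difference was -0.17 ± 0.16 (SE), with companions that averaged -0.24. At the other end, gID_08172 lay 0.26 ± 0.19 (SE) above its companions in HEK293FT, which averaged -0.22.

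Within the sets, the low guide was the lowest of the 4 in HEK293FT in 6 of 12 sets (50%), while the lowest HAP1 guide was also the lowest HEK293FT guide in 28.0% of complete sets. These 6 were the sets of gID_16148, gID_15204, gID_08120, gID_02412, gID_01128 and gID_06576. In the sets of gID_08172 and gID_16040 it was instead the highest of the 4. The differences from companions ran from -1.04 in the set of gID_16148 to 0.26 in that of gID_08172. As 0 of the 12 were called in the fit without a block, the order of the sets rests on point values.

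Of the 36 companions, 0 were called lower in HEK293FT by limma, where 1.08% of all guides tested were. None was called higher, where 1 of all guides tested was. At an unadjusted p under 0.05 there was 1 lower, gID_16147 (2.78% of companions, against 9.52% of all guides tested). There was also 1 higher, gID_15514 at 0.50 ± 0.14 (SE). Their median was -0.12, between that of all targeting guides (-0.03) and that of the low guides (-0.26), and 26 of 36 lay below 0. Both day 14 libraries were below both day 0 libraries in 13 of 36 companions and in 6 of 12 low guides, against 26.9% of all guides tested. The same held for 66.0% of the low guides of the 97 other sets with 1 guide below -1.5 in HAP1. It held for 83.2% of guides of sets with all 4 below -1.5.

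Other guides that were low in HAP1 give a scale for these HEK293FT values. In the 97 other sets with 1 guide below -1.5, that guide had a HAP1 median of -2.04, close to the -2.08 of the 12, and a HEK293FT median of -0.39, with 6 of 97 called lower. In the 58 sets with all 4 guides below -1.5, the 232 guides had a HAP1 median of -3.41 and a HEK293FT median of -0.82, with 70 of 232 called lower. Below -0.5 in HEK293FT were 3 of the 12 low guides (25%), 35.1% of the 97, 65.1% of the 232 and 4.95% of all targeting guides. No test compared these lists, and fully depleted sets were also more deeply depleted in HAP1. The low guide was the lowest of its set in HEK293FT in 63.9% of the 97 sets and in 50% of the 58 sets. Within sets, the low guide differed from its companions by a median of -0.26 in the 97 sets and -0.29 in the 58 sets, against -0.13 in the 12.

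Starting abundance was lower for the low guide than for the mean of its companions in most sets. The rule did not use the HEK293FT day 0 values, but both lines received the same guide library. These values are therefore not independent of the HAP1 day 0 values that the rule used. Matching counts over all complete sets were not made, and median ratios are given instead. At day 0 in HEK293FT the low guide's mean signal was below the mean of its companions in 9 of 12 sets, with a median ratio of 87.9%. The same ratio had a median of 102% over all complete sets, 95.0% in the 97 sets and 97.5% in the 58. It ran from 54.6% for gID_06576 to 168% for gID_16040. In level, the low guides had a median HEK293FT day 0 signal of 124, from 76.1 to 166, against 122 for the companions and 134 for all targeting guides. In HAP1, where the rule used the day 0 values, the low guide was below its companions at day 0 in 8 of 12 sets. The median HAP1 ratio was 86.4%, against 105% over all complete sets, 97.8% in the 97 sets and 92.5% in the 58. The part of starting abundance in the HAP1 changes was not tested.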

How the data were processed

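The authors' deposited tables hold 1 normalised signal per guide and library, and the normalisation is not given in the sources used here. Bowtie 1.1.2, cutadapt 1.13 and the build GRCh38 are named in the submitters' processing notes. Rows without a guide ID (1 in HAP1, 120 in HEK293FT) were left out and repeated IDs (17 and 16) averaged, leaving 17690 and 17572 guides. Log2 signals were centred on each library's mean of log2 non-targeting values after trimming 30% from each side. Day 14 was compared with day 0 in HEK293FT with limma 3.58.1 under R 4.3.3, with a variance prior that follows a trend, over all guides and, for the low guide less its companions, over all complete sets. Adjusted p-values are Benjamini-Hochberg, and intervals are 95%. The number of libraries, 2 per day, limits the precision. HAP1 values were not tested, since the rule used them. The named guides are the 12 low guides, companions with an unadjusted p under 0.05 in HEK293FT, and guides nearest the thresholds, while gID_16145 and guides of neighbouring sets were named after their values were seen. The sets and lists were chosen with earlier results of these data known. Alternatives were pseudocounts of 1 and 10, a minimum mean signal of 50, other scalings, variance priors, a replicate block, other thresholds of the rule, and each library left out.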

Additional observations from a re-analysis of the deposited data

How the results depend on the processing

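The rule found between 8 and 14 sets with a HAP1 library left out, 7 with a pseudocount of 10 (6 of them among the 12), 13 with total signal scaling and 11 with a pseudocount of 1. With the low guide below -1 or below -2 it found 32 or 6 sets, and with companions above -0.5 or above 0 it found 19 or 3. Low guides called lower in HEK293FT numbered 0 or 1 with a HAP1 library left out and 1 with companions above -0.5. These counts use the HEK293FT fit on all libraries, where 1.08% of guides and 0 of the 12 were called. The calls were therefore of guides outside the 12. Under all other planned settings with every HEK293FT library kept, 0 low guides were called. With a HAP1 library left out, 0 sets were called. Fits with a HEK293FT library left out are given above. Those fits left 1 HEK293FT library for a day, and that library was assumed to vary like those of the other day.

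In HEK293FT, day 0 and day 14 libraries with the same replicate number moved in opposite directions from their day's mean (r = -0.327 across guides). The labels name separate infections without saying that a number marks the same infection on both days, so whether the numbers pair the libraries is not known. With the replicate block 0 low guides and 1 set, that of gID_16148, were called, where 199 of 17572 guides and 2.32% of complete sets were. With numbers crossed between days as a block, added after seeing the data, 3 low guides and 0 sets were called. In that fit 4.33% of all guides and 1.98% of complete sets were called. The 3 were gID_16148, gID_08120 and gID_15204, with adjusted p of 0.0274, 0.0292 and 0.0300 from limma, while gID_02412 was at 0.130.

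The companions' median was -0.11 with a pseudocount of 10, -0.053 with total signal scaling, and from -0.16 to -0.033 with a library of either line left out. With the rule changed in HAP1 it was -0.14 with a pseudocount of 1, -0.16 with a pseudocount of 10 and -0.10 with total signal scaling. With the low guide below -1 or -2 it was -0.10 or -0.21, and with companions above -0.5 or above 0 it was -0.10 or -0.14. The low guides' median of -0.26 was negative in every setting run but ranged from -0.49 without HEK293FT day 14 replicate 2 to -0.11 without day 14 replicate 1. The lowest of the 4 in HEK293FT was the low guide in 12 of 32 sets with the limit at -1, in 10 of 19 with companions above -0.5, in 2 of 3 with companions above 0, and in 3 to 7 with a library left out. Both day 14 libraries lay below both day 0 libraries for 18 of 32, 10 of 19 and 3 of 3 low guides under the same 3 limits, as for 26.9% of all guides.

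Values near 0 changed sign with a HEK293FT library left out, none of them called: the changes of gID_06576 (-0.46 to 0.020), gID_08172 (-0.18 to 0.26), gID_10500 (-0.21 to 0.078), gID_15516 (-0.17 to 0.21), and the differences from companions in the sets of gID_10500 (-0.16 to 0.28), gID_10964 (-0.071 to 0.13), gID_15516 (-0.27 to 0.079), gID_16040 (-0.058 to 0.20), gID_16560 (-0.25 to 0.13). With total signal scaling gID_10500 was at 0.0036. The cause of each shift was not tested. The depth behind the signals is unknown, so counting error could not be given.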

Other observations

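Of the 12 sets, 4 lay next in number to a set with a guide below -1.5 in HAP1, as 14.6% of complete sets did. The set before that of gID_10964 had 3 guides below -1.5, and its lowest, gID_10960, was at -3.57 in HAP1 and -2.73 in HEK293FT, with an adjusted p of 0.000944 from limma. The set before that of gID_08120 also had 3 such guides. Its lowest, gID_08116, was at -3.47 in HAP1 and -0.42 in HEK293FT (adjusted p = 0.378 by limma). The sets beside those of gID_16148 and gID_15516 had 1 such guide each, gID_16144 at -1.92 and gID_15520 at -4.12 in HAP1. In HEK293FT these were at -0.38 and -0.96, with adjusted p of 0.283 and 0.0732 from limma, so neither passed. Whether neighbouring sets share a target is not stated in the labels, and these neighbours were looked at after the values were seen.

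By number, 5 of the 12 sets ended above 12000, a range that holds 28.2% of complete sets, 4 ended over 8000 and up to 12000 (23.9%), 1 over 4000 and up to 8000 (23.9%), and 2 at or below 4000 (23.9%). In HEK293FT, 2 of the 12 low guides, gID_16148 and gID_15204, lay below the lowest 1% of non-targeting guides, whose bound was at -0.68, as 2.75% of targeting guides did. The non-targeting guides had a tail of their own in HEK293FT, with 2 guides below -1 and the lowest at -2.33. Their median HEK293FT day 0 signal was 436, against 124 for the low guides, so the bound came from guides measured at higher abundance.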
